A study of Rattus norvegicus with 2 samples.

Results

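CGRP, adrenomedullin and their shared receptor form a small peptide system that widens arteries. The 7 genes considered were Calca, Calcb and Adm for the peptides, Calcrl for the receptor, and Ramp1, Ramp2 and Ramp3 for its partner proteins. They were chosen by name. Each probe set whose only gene symbol in the platform annotation is 1 of these names was taken, which gave 6 probe sets for 4 of the 7 genes, out of 7018 probe sets for 4737 genes with a single symbol. The 6 were 2 probe sets for Calca, 1 for Calcb, 1 for Adm and 2 for Calcrl. No probe set was named for Ramp1, Ramp2 or Ramp3, so the partner proteins are not analysed here.

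The RNA came from small mesenteric arteries of the first and second branching order, the muscular vessels that feed the rat gut. One group had portal hypertension before the liver, made by partial ligation of the portal vein, and the other had a sham operation. The labels used here give no strain, sex, age or time after the operation. Each group was 1 pool of total RNA from 20 rats, read on 1 Affymetrix RG_U34A array, so differences between rats are averaged away, the precision is limited by the number of arrays, and no difference has an error or a p-value.

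Calca gives rise to calcitonin or to alpha-CGRP by alternative splicing, and Calcb encodes beta-CGRP. CGRP is released in the gut wall and around arteries by sensory nerve fibres, whose cell bodies, and most of whose mRNA, lie outside the vessel in ganglia. Adrenomedullin is made by endothelium, smooth muscle and other cells. Calcrl encodes the calcitonin receptor-like receptor, which reaches the cell surface only with a partner. With the product of Ramp1 it binds CGRP, and with that of Ramp2 or Ramp3 it binds adrenomedullin. The receptor raises cyclic AMP in smooth muscle and acts through nitric oxide in endothelium. CGRP and adrenomedullin have both been studied as candidates for the wide splanchnic vessels of portal hypertension.

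The sequences around the gene starts of 3 members are shown because Adm and Calcrl carry the measured values and Calca is the classical nerve peptide of the system. They are RefSeq promoters of the rat assembly GRCr8, 250 bases before and 50 after the gene start, of which the table holds 5 of the 7 members. Capitals mark matches, on either strand, to short motifs. TATAA is the core of the TATA box. ACGTG is a core of the element that hypoxia-inducible factors bind, and GCGTG is its variant. The short form of the cyclic AMP response element is TGACG. No motif overlaps a different one in the windows shown. The TATA core was added to this search after the Adm sequence had been read.
Adm, chr1:174179950-174180249, plus strand: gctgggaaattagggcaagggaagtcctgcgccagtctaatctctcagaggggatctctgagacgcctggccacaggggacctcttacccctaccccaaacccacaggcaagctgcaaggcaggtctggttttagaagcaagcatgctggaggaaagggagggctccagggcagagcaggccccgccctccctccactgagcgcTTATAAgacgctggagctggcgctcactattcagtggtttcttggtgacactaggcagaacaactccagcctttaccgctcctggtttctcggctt
Calcrl, chr3:89932567-89932866, minus strand: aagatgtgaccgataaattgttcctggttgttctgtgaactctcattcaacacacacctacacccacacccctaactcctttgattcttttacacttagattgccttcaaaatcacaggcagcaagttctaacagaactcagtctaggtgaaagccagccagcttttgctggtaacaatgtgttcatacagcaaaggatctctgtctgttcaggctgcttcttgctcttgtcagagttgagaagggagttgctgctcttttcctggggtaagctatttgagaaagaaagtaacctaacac
Calca, chr1:178317480-178317779, minus strand: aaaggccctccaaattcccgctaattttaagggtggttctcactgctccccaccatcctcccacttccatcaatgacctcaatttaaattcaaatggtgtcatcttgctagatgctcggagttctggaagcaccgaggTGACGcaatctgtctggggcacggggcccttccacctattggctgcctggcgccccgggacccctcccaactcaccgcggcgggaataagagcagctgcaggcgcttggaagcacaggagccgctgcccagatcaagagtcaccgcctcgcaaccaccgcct
The Adm window held the TATA core on both strands within 1 stretch that begins 46 bases before the gene start. The Calca window held the short cyclic AMP element 112 bases before the start, and the Calcrl window held none of these letters. Of all 33469 promoters in the table, 26.2% held the TATA core and 21.2% the short cyclic AMP element. The hypoxia core was found in 19.3% of them as ACGTG. Its variant was found in 29.7%. A match is a description of letters and not evidence of a bound factor. In the same assembly Calca and Calcb lie next to each other.

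Signals are linear intensities as deposited, and both arrays have nearly the same trimmed mean. As no detection calls were used, the 40th percentile of all values, 330.9, was taken as a floor, below which a signal was not read as a level. Of the 6 probe sets, 3 lay above it in both pools (Adm and both of Calcrl) and 3 lay below it in both (both of Calca and that of Calcb). So 2 of the 7 genes have a ratio between the pools, 2 give only an upper limit for their signals, and 3 are without a probe set.

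The CGRP genes gave no signal above the floor in either pool. The Calca probe set L00111unknown_S536_at read 235.7 in the portal hypertensive pool and 327 in the sham pool, where it was 0.988 times the floor. The other Calca probe set, M11597_at, read 37.6 in the portal hypertensive pool and 17.5 in the sham pool. The Calcb probe set M11596_at read 81.7 in the portal hypertensive pool and 58.9 in the sham pool. The annotation does not say which Calca probe set reads the calcitonin and which the CGRP form of the mRNA. No fold is given for either gene, because values below the floor have no order.

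Adm was somewhat higher in portal hypertension, by less than 1.5-fold. Its probe set D15069_s_at read 1142.3 in the portal hypertensive pool (3.45 times the floor) and 920.8 in the sham pool (2.78 times). This is a difference of 24.1%, or a log2 ratio of 0.31. This is close to the SD of log2 ratios between probe sets of the same gene, 0.30 (1801 probe sets of 789 genes), and smaller than the SD of 0.34 over the 1653 probe sets of middle signal level, among which it falls. Among the 4960 probe sets above the floor on both arrays, 12.7% had a higher ratio and 30.0% a ratio farther from 0. The suffix of this probe set marks a set that may also bind related transcripts, and no other Adm probe set was there to set beside it.

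Calcrl, the receptor through which both peptides act, differed little. Its brighter probe set, L27487_at, read 5219.6 in the portal hypertensive pool and 5757.4 in the sham pool, well above the floor in both. The signal was lower by 9.34% in the portal hypertensive pool (log2 ratio -0.14), within the SD of 0.28 over the 1653 brightest probe sets. The second probe set, rc_AI228025_s_at, read 360.5 in the portal hypertensive pool (1.09 times the floor) and 363.5 in the sham pool (1.10 times), with a log2 ratio of -0.01. The median over both probe sets was a log2 ratio of -0.08.

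**Figure D1:**
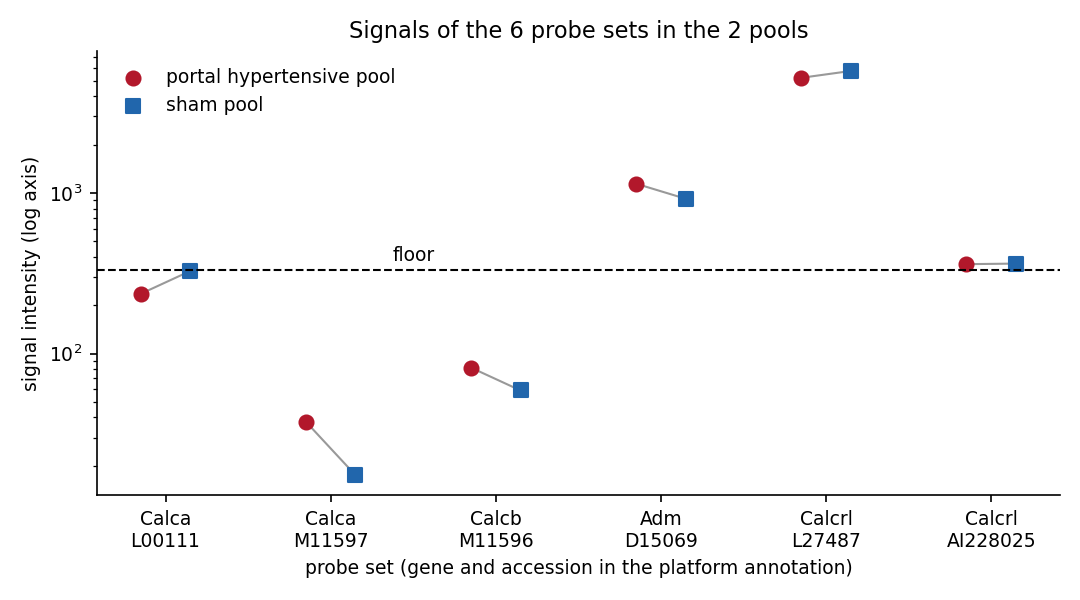
Signal intensity (log axis) of each of the 6 probe sets, as red circles for the portal hypertensive pool and blue squares for the sham pool, 1 array each, with the floor of 330.9 as a dashed line. Both Calca probe sets and that of Calcb lie under the line in both pools, Adm and the brighter Calcrl probe set lie clear of it, and the second Calcrl probe set lies just above it.

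Set beside the whole array with its 4960 probe sets above the floor on both arrays, neither measured member stands out. Of the 2 member genes with a value, 0 were at least 1.5-fold apart, whereas 8.18% of the 3351 genes with a value were (3.13% higher and 5.04% lower). With 2 genes this count says little about the system. Across these 4960 probe sets the median log2 ratio was -0.02 and the SD 0.35, and 154 were at least 1.5-fold higher and 267 lower in the portal hypertensive pool. After quantile normalization these numbers were 201 higher and 213 lower.

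The arrays differed in their spike-in controls, which touches the reading of Adm. The 9 bacterial and phage controls averaged 0.28 on the log2 ratio scale, from -0.07 to 0.88, and 8 of them were above 0. The scanner notes give 12.5 µg of labelled cRNA for the portal hypertensive array and 17 µg for the sham array. A question mark follows each number there, and whether it marks doubt or a lost unit sign is not known. Each amount belongs to 1 group, so that amount and operation cannot be told apart. When the spike-ins were set equal, the ratio of each probe set above the floor before and after moved down by 0.28. The floor, taken again as a percentile, moved too, so genes near it shifted by other amounts. The median of all measured probe sets became -0.29, Adm had a log2 ratio of 0.03 and Calcrl -0.35. Relative to the median of the array Adm stood 0.32 higher under that scaling and 0.33 higher as deposited. These values had to be close, because the scaling divides every portal hypertensive signal by the same number. Signal at the 3' end over signal at the 5' end, which reflects how whole the RNA and its labelling were, was 1.79 in the portal hypertensive pool and 2.05 in the sham pool for beta-actin, and for GAPDH it was 1.85 in the portal hypertensive pool and 1.83 in the sham pool.

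**Figure D2:**
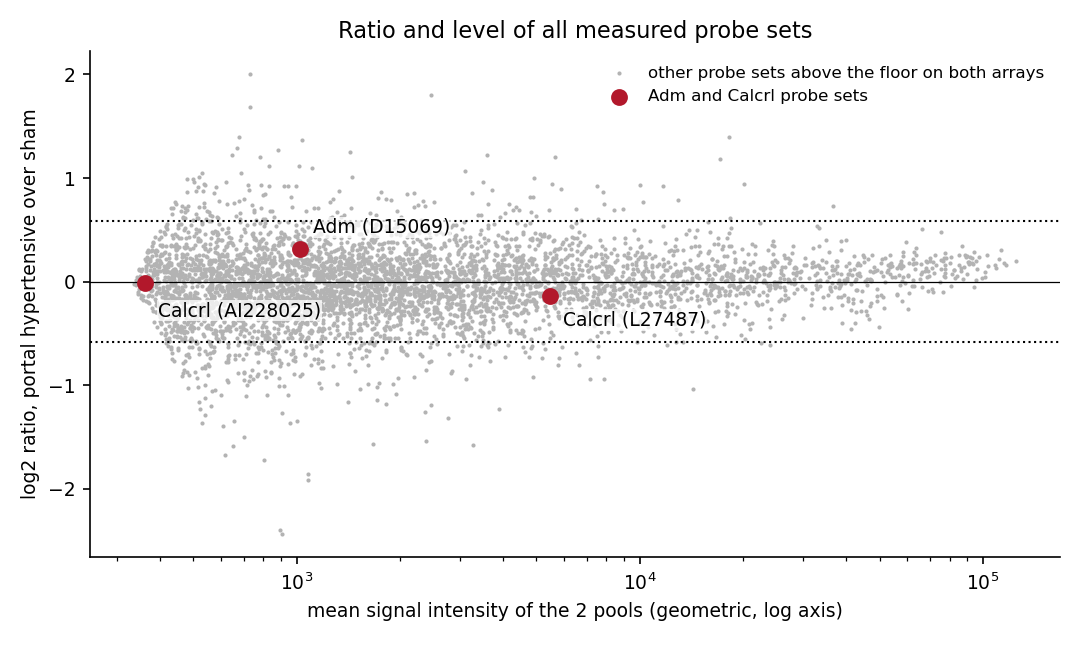
Log2 ratio of portal hypertensive over sham against the geometric mean signal of both pools (log axis) for all 4960 probe sets above the floor on both arrays, with dotted lines at 1.5-fold. The red points, Adm at 0.31 and Calcrl at -0.14 and -0.01, lie inside the grey cloud and between the dotted lines.

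Most genes listed for making or clearing the peptides, with Crcp of receptor coupling among them, had ratios close to or slightly above 0. Of 9 listed genes 7 had a value, 6 of them above 0 and 1 below, where 46.8% of all genes lay above 0. The median log2 ratio was 0.03, against -0.02 over all genes with a value, and it was -0.25 with spike-in scaling. The 1 gene below 0, Scg5, which encodes a chaperone of a peptide-cutting convertase, was also the 1 gene of the list at least 1.5-fold apart at the floor used. It read 262.3 in the portal hypertensive pool, under the floor, and 503.4 in the sham pool, at least 1.52-fold lower, and was named after its value was seen. A second Scg5 probe set was below the floor in both pools. Mme, which encodes neprilysin, a membrane protease that degrades vasoactive peptides, read 718.9 in the portal hypertensive pool and 489.1 in the sham pool on the probe set above the floor (log2 ratio 0.56). Its other probe set was below the floor, and with a floor at the 20th percentile, where that set counts too, the Mme value was 0.09. Ece1, the endothelin-converting enzyme, read 2947.8 in the portal hypertensive pool and 2357.7 in the sham pool (0.32). Pam, the enzyme that amidates the ends of CGRP and adrenomedullin, had a median log2 ratio of 0.08, with its 4 measured probe sets between -0.35 and 0.19. Crcp, a small intracellular protein that couples the CGRP receptor to its signal, read 4382.6 in the portal hypertensive pool and 4289 in the sham pool (0.03). Cpe (0.02) and Ide (0.005, with probe sets at -0.35 and 0.36) were also counted above 0. They were named after their values were seen.

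Ackr3 was the only one with a value among 4 further genes listed beside the members, and it is not itself a calcitonin family gene. It encodes an atypical receptor that binds a chemokine and also adrenomedullin, and it read 24644.3 with portal hypertension and 23224 in the sham pool, which gives a log2 ratio of 0.09. Calcr, the calcitonin receptor gene, and Iapp, the amylin gene, lay under the floor throughout, and Adm2 had no named probe set. No calcitonin family gene on this list therefore had a value.

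Genes of perivascular sensory nerve, the source of CGRP in the vessel wall, were mostly near or below the floor. Of 14 listed genes 12 had a probe set, 7 a value and 5 a probe set above the floor in both pools. Trpv1, the capsaicin receptor, and the sensory sodium channel genes Scn10a and Scn11a were below the floor in both, as Calca was. Gap43, a growth cone protein gene, read 1341.9 in the portal hypertensive pool and 1568.5 in the sham pool (log2 ratio -0.23). Nefm, a neurofilament gene, read 596 in the portal hypertensive pool and 519.7 in the sham pool (0.20), with the sign turned by spike-in scaling, and P2rx3, an ATP receptor of sensory neurons, read 523.1 in the portal hypertensive pool and 540.2 in the sham pool (-0.05, and 0.04 after quantile normalization). Ngfr, the low-affinity nerve growth factor receptor gene, had -0.53 and 0.55 on its 2 probe sets, so its direction was not settled. Tac1, which encodes substance P, a peptide stored beside CGRP, read 307.9 in the portal hypertensive pool, under the floor, and 521.1 in the sham pool. On this probe set it was at least 1.57-fold lower, and its other probe set was below the floor in both pools. Prph, the peripherin gene, went the other way, with 592.4 in the portal hypertensive pool and 255.5, under the floor, in the sham pool, at least 1.79-fold higher. These 2 genes were chosen with their values known. The list median was 0.01, with 1 gene at least 1.5-fold higher and 1 lower. Over all genes with a value 3.13% were that far higher and 5.04% lower. In a pooled tissue sample, fewer nerve fibres or other cells and less RNA in each cannot be told apart.

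Other peptide vasodilators and their receptors were mostly low on the array. Of 30 listed genes 23 had a probe set, and 13 of these, among them Vip, Nppa and the bradykinin receptor gene Bdkrb2, were below the floor in both pools. Of the 10 with a value 2 were above 0 and 8 below, where 53.2% of all genes lay below 0. At least 1.5-fold apart were 0 of the 10, against 8.18% of all genes with a value. The median log2 ratio was -0.21. That sign was not stable, since the median was 0.10 when the floor was lowered to the 20th percentile and 0.12 without a floor. Bdkrb1, the inducible bradykinin receptor gene, was higher on both of its probe sets (0.39 and 0.40). Klk1, a kallikrein gene, read 606.1 in the portal hypertensive pool and 837.1 in the sham pool (-0.47), and its second probe set pointed the other way. Glp1r, the receptor gene for glucagon-like peptide, read 607.8 in the portal hypertensive pool and 787.9 in the sham pool (-0.37), a value that turned to 0.34 when the floor was lowered to the 20th percentile. Adcyap1, the gene for the vasodilator peptide PACAP, read 557.9 in the portal hypertensive pool and 682.7 in the sham pool (-0.29).

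Downstream of the receptor, most genes of cyclic AMP signalling had a log2 ratio slightly below 0. Their summed signal, in which bright probe sets weigh most, was not lower. Of 21 genes with a value 17 had a log2 ratio below 0 and 4 above, where 53.2% of all genes lay below 0, and the median was -0.18. It stayed below 0 under each of the 10 alternative settings, from -0.45 to -0.09. The -0.45 came with spike-in scaling, where the median of all measured probe sets was itself -0.29. Of the 21, 2 were at least 1.5-fold lower and 0 higher, where 5.04% of all genes with a value were that far lower and 3.13% higher. The summed signal of the measured probe sets was 158430 in the portal hypertensive pool and 156739 in the sham pool. Prkaca, Prkacb, Arrb2 and Pde4b, counted below 0 and named after their values were seen, had measured probe sets on both sides of 0. Prkar1b, a regulatory subunit of protein kinase A, read 1964.2 in the portal hypertensive pool and 3047.7 in the sham pool (log2 ratio -0.63). Creb1, the transcription factor that this kinase activates, read 339.9 in the portal hypertensive pool, just above the floor, and 522.7 in the sham pool (-0.62). Prkar2b, another regulatory subunit, read 380.3 in the portal hypertensive pool and 550.4 in the sham pool (-0.53), and Pde4a, a phosphodiesterase that breaks down cyclic AMP, read 801.5 in the portal hypertensive pool and 1141.7 in the sham pool (-0.51). Gnas, which encodes the G protein subunit that links Calcrl to adenylyl cyclase, had 0.10 over 4 probe sets, from -0.05 to 0.17, and was named after its value was seen. Gnas was the brightest gene of the list, with geometric mean signals of 9784.07 in the portal hypertensive pool and 9279.56 in the sham pool. The summed signal therefore says little about the dimmer genes of the list.

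The potassium channels through which cyclic AMP relaxes smooth muscle went both ways, 3 of 6 genes above 0 and 3 below. The median was -0.12, and over the alternative settings it lay between -0.40 (spike-in scaling) and 0.10 (20th percentile floor), above 0 under 3 of 10. With only the measured probe sets it was -0.28. The summed signal was 31832.6 in the portal hypertensive pool and 46025.1 in the sham pool, mostly from Kcnmb1. Kcnma1, counted above 0 and named after its value was seen, was above the floor in the portal hypertensive pool only. Kcnmb1, the beta subunit of the large calcium-activated channel, was at least 1.5-fold lower over its 2 probe sets (-1.04 and -0.33). On the gene median 0 of the 6 genes were as far higher, where 3.13% of all genes with a value were 1.5-fold higher and 5.04% lower. Kcna5, a voltage-gated channel gene, read 700.6 in the portal hypertensive pool and 946.7 in the sham pool (-0.43). Kcnj11, a pore subunit of ATP-sensitive channels, read 596.8 in the portal hypertensive pool and 360.4 in the sham pool on the probe set above the floor (0.73), while the other read 227.2 in the portal hypertensive pool and 331.9 in the sham pool, which leaves a gene median of 0.36, below 1.5-fold. With only the measured probe sets counted, 2 of the listed genes were at least 1.5-fold apart. Abcc9, the vascular sulphonylurea receptor subunit of those channels, had -0.54 and -0.02 on its measured probe sets, and another probe set was above the floor in the sham pool only.

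Adm is known to be induced by low oxygen, and 21 such genes were listed beside it. Of the 15 with a value 8 were above 0 and 7 below, with a median log2 ratio of 0.12 that was -0.04 with the probe set of highest level. Edn1, the gene for the constrictor peptide endothelin, read 1552.3 in the portal hypertensive pool and 1011.1 in the sham pool (0.62). Pdk1, a brake on pyruvate dehydrogenase, read 952.7 in the portal hypertensive pool and 641.8 in the sham pool (0.57), a value of 0.10 with the floor at the 60th percentile. Pfkl, a phosphofructokinase gene, read 408.2 in the portal hypertensive pool and 719.9 in the sham pool (-0.82). Hk2, a hexokinase gene, read 1515.3 in the portal hypertensive pool and 1976.6 in the sham pool (-0.38), and turned to 0.35 at a 20th percentile floor. Genes of this list thus lay on both sides of 0.

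**Figure D3:**
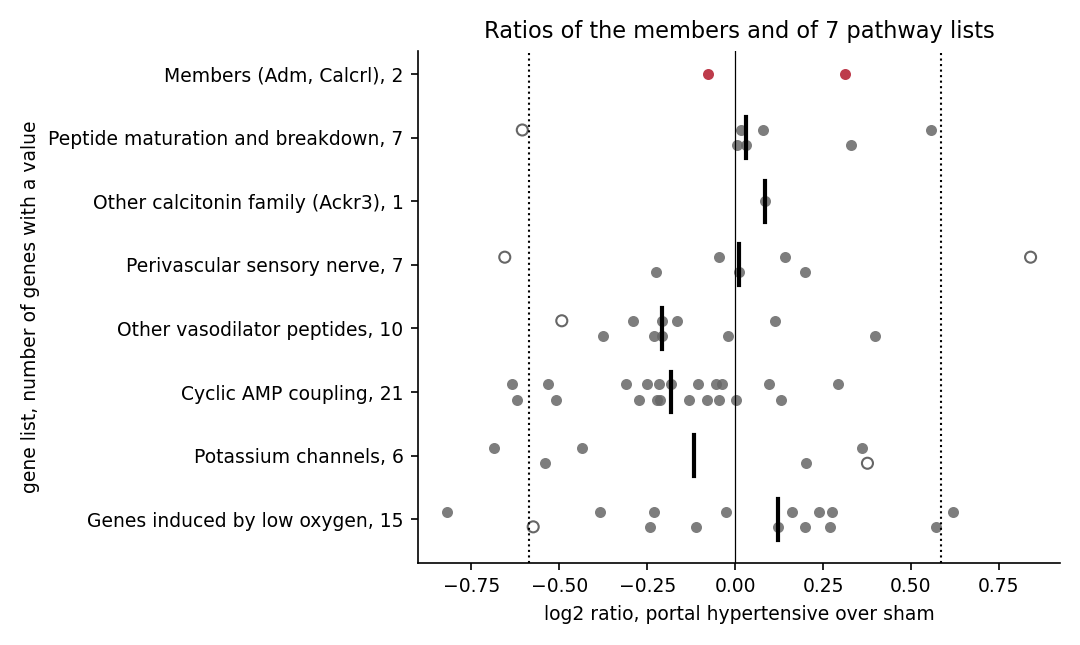
Log2 ratio of portal hypertensive over sham for Adm and Calcrl (red) and for each gene with a value in 7 pathway lists (grey), with the list median as a black bar and dotted lines at 1.5-fold. Open circles are genes above the floor in 1 pool only, whose ratio is a limit. Cyclic AMP coupling genes (17 of 21) and other vasodilator peptides (8 of 10) lie mostly left of 0, peptide maturation genes (6 of 7) mostly right of it, and the sensory nerve, potassium channel and low oxygen lists spread to both sides.

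Markers of the vessel's own cells differed in direction. Smooth muscle markers were bright in both pools, with summed signals of 618562 in the portal hypertensive pool and 619258 in the sham pool, and a median log2 ratio of -0.09 over 6 genes, 4 of them below 0. Tagln and Myl9 had 0.17 and 0.10, signs that turned after quantile normalization and with spike-in scaling, and Acta2, smooth muscle actin, had -0.32. Of 6 endothelial markers with a value 5 were below 0, with summed signals of 10258.3 in the portal hypertensive pool and 11704 in the sham pool. Pecam1 and Thbd, 2 surface proteins of endothelium, had log2 ratios of -0.10 and -0.09, while Edn1, also among the 3 brightest, had 0.62. Where 3.13% of all genes with a value were at least 1.5-fold higher and 5.04% lower, 1 of the 6 was higher (Edn1) and 2 lower. These 2, named after their values were seen, were Icam2 at -1.13 and Nos3 with a median of -0.78 over probe sets from -1.20 to 0.25. Vwf and Kdr were below the floor in both pools. The lymphatic endothelial markers Lyve1 and Pdpn were both higher, at 0.32 and 0.58 (0.03 and 0.30 with spike-in scaling). Their summed signal was 3416.2 in the portal hypertensive pool and 2553.2 in the sham pool. Prox1 and Flt4, also listed, had no named probe set.

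Markers of other cell types also gave signals above the floor, though not all of those listed did. Of 5 adipocyte markers 4 were above 0, with a median of 0.34, led in signal by Fabp4, Lpl and Cfd (0.51, 0.34 and 0.28), and a summed signal of 109104 in the portal hypertensive pool and 89329.8 in the sham pool. Of 5 macrophage markers 3 were above 0 (Ctss 0.50, Aif1 0.46 and Cd14 -0.14 were the brightest), and the list's summed signal was 29242.8 in the portal hypertensive pool and 22720.6 in the sham pool. Of 5 mast cell markers 4 were above 0 (Cma1 1.20, Cpa3 0.82, Tpsb2 -0.37), with summed signals of 17481.9 in the portal hypertensive pool and 10371.5 in the sham pool. All 6 fibroblast markers were above 0, among them Col1a2 at 0.21, Col3a1 at 0.32 and Dcn at 0.01, the last below 0 after quantile normalization, with summed signals of 580476 in the portal hypertensive pool and 529068 in the sham pool. Of 6 nerve and Schwann cell markers with a value 4 were above 0, with Npy at -0.33, S100b at 0.11 and Pmp22 at 0.16, and summed signals of 67737.9 in the portal hypertensive pool and 67288.6 in the sham pool. Mbp, Dbh and Nefl were below the floor in both pools. The mesothelial markers Wt1 and Krt19 were below the floor in both. Spike-in scaling put Col1a2, Dcn, S100b and Pmp22 below 0. The part of these cells in the Adm and Calcrl values was not tested.

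Adm and Calcrl were also computed under other settings. Adm has 1 probe set well above the floor, and 5 of its 9 settings returned the reported value and say little about stability. The floor at the 60th percentile, 889.84, is 1 of these and lay just under the sham signal of 920.8. The others had to return the reported value. Under the 4 scalings its log2 ratio lay between 0.03 (spike-in scaling) and 0.38 (quantile normalization). Calcrl had another value under 7 of its 10 settings, from -0.35 (spike-in scaling) to -0.06, and its dim probe set alone came to 0.04 after quantile normalization and to 0.01 both with the loess trend removed and with the median ratio set to 0. Neither gene reached 1.5-fold under any setting run.

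**Figure D4:**
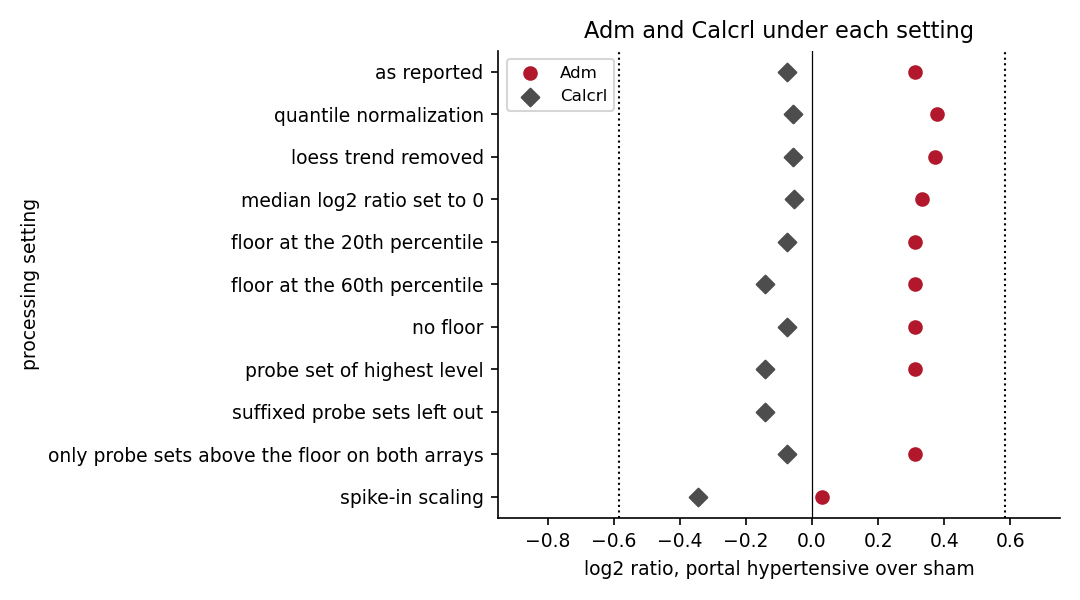
Log2 ratio of portal hypertensive over sham for Adm (red circles) and Calcrl (grey diamonds) as reported and under 10 alternative settings, with dotted lines at 1.5-fold. Of the Adm points for other settings, 5 are equal to the reported one, as its only probe set lies above each floor used. Adm has none when suffixed probe sets are left out, and spike-in scaling moves Adm and Calcrl to the left, to 0.03 and -0.35.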

How the data were processed

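Per the labels, total RNA was isolated with TRIzol, followed by an RNeasy cleanup, and the array is named RG_U34A per the file headers. The deposited table holds a linear signal intensity for each probe set on each array. How the authors computed, scaled and background-corrected these intensities is not given in the sources used. The means after leaving out 2% at each end were 2504.38 (portal hypertensive) and 2504.33 (sham), so the deposited intensities were used without rescaling. Values under the floor of 330.9 (40th percentile of 8740 probe sets, 59 controls left out) were set to it before log2. Of these probe sets 4960 were above it on both arrays, 567 on 1 and 3213 on neither. The value of a gene is the median log2 ratio of those of its probe sets that exceed the floor on 1 or both arrays. For genes described on their measured probe set, signals are those of that probe set.

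Symbols come from the platform annotation (7018 probe sets with 1 symbol, 308 with several, 1473 with none), and a RefSeq table of GRCr8 changed 0 of them. With 1 array per group no test was run. From each of 7 pathway lists the 4 measured genes with the largest absolute ratio are named, and from each of 9 marker lists the 3 brightest, besides all members. The members and lists were chosen with earlier results of these data known. Alternative settings were 3 scalings, 2 other floors and no floor, 3 ways to summarise probe sets, and spike-in scaling, which was added after seeing the data. The calculation was tested on simulated data with changes far larger than any member ratio. That test checks the arithmetic and says nothing about ratios as small as those of Adm and Calcrl. Python 3.11.15, pandas 2.3.3, scipy 1.17.1 and statsmodels 0.14.6 (loess, span 0.4) were used.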

Additional observations from a re-analysis of the deposited data

How the results depend on the processing

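No paired analysis was possible because each group is 1 array, and for the same reason no replicate could be left out. Calca and Calcb had no ratio at the floor used. Calca came to a log2 ratio of -0.47 at a floor set to the 20th percentile, to 0.32 without a floor and to -0.12 by spike-in scaling, while Calcb came to 0.47 with no floor. Those values rest on signals below or near the floor. With no floor the median of the list with Ackr3, Calcr and Iapp was -1.01. The median of the other vasodilator peptides was 0.12 (0.10 at the 20th percentile, against -0.21 as reported). Spike-in scaling, with the floor set anew, turned the medians of the peptide maturation (-0.25), sensory nerve (-0.20) and low oxygen (-0.16) lists below 0. It did the same to the list with Ackr3, Calcr and Iapp, whose median of -0.19 was the Ackr3 value. The median of all measured probe sets was then -0.29. The number of probe sets at least 1.5-fold higher and lower in the portal hypertensive pool, 154 and 267 as reported, came to 430 and 598 at the 20th percentile floor, 69 and 110 at the 60th, 967 and 1106 without a floor and 53 and 839 with spike-in scaling. No member gene was at least 1.5-fold apart under any setting. Of 703 values compared over the settings, 633 moved by less than 0.30 on the log2 scale (counts by at most 1.5 times) and 70 moved further. The 633 include values that a given setting could not change. The spike-in shift of 0.28 for measured probe sets also lies inside the limit. This total is therefore not a measure of stability. Of the 6 member probe sets, 3 gave signals under the floor in both pools and support no ratio.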
